A study of Homo sapiens with 6 samples.

Results

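The genes of the proteasome and its regulators were examined in RNA immunoprecipitates of the RNA-binding protein CELF1 (also called CUGBP1). They were taken as the protein-coding genes of the GENCODE annotation on GRCh37 whose symbols begin with PSMA, PSMB, PSMC, PSMD, PSME, PSMF or PSMG and a digit. This gave 50 genes of 19833. The symbol rule uses no measured value. All but 2 encode a subunit, an activator, an inhibitor or an assembly factor of the proteasome. PSMC3IP and PSME3IP1 match by symbol alone, as the former encodes a partner protein of PSMC3 known for meiotic recombination and the latter a partner of PSME3.

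CELF1 was immunoprecipitated with an antibody to CUGBP1 from formaldehyde-fixed cells of the human melanoma lines SK-Mel-103 and UACC-62, for which the labels give no treatment, and the recovered RNA (IP) was sequenced beside RNA of the lysates (input). The IP samples were replicate 1 of SK-Mel-103 (n = 1) and replicates 1 and 3 of UACC-62 (n = 2), each with its own input, and the design text of the series calls the UACC-62 samples biological duplicates. Each list held the bins of 20 bp that had passed the authors' peak caller, and no bin that failed. IP over input is given here as log2 of the share of all listed IP reads over the share of all listed input reads in the exonic bins of a gene, so that 0 marks equal shares. Values of all 3 samples are given in a fixed order, SK-Mel-103 first, then replicate 1 and replicate 3 of UACC-62. With 1 sample in SK-Mel-103 and lists that hold passing bins, no test was made and all values are descriptions.

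The proteasome is the cell's main machine for degrading ubiquitin-tagged proteins. Its 20S core is a barrel of outer alpha rings and inner beta rings, the latter holding the proteolytic sites, and is capped by the 19S particle, whose ATPases unfold substrates and whose non-ATPase subunits bind and remove ubiquitin. Alternative caps such as the PSME (PA28 and PA200) proteins open the core without ubiquitin. CELF1 binds GU-rich elements (GREs) in 3′ untranslated regions (3′ UTRs) and is known for its effects on splicing, translation and decay of mRNAs.

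PSME3, which encodes the nuclear activator REG gamma, and PSMD10, which encodes the 19S assembly chaperone gankyrin, were the only members with log2 IP over input above 0 in all 3 samples. GREs were searched on the transcript strand of annotated 3′ UTRs as 11-nt stretches within 2 mismatches of UGUGUGUGUGU or UGUUUGUUUGU, where overlapping stretches count separately. The following sites are shown as examples of those described below, 5′ to 3′ with the 11 nt in capitals and 5 nt on either side, as read from GRCh37. The first 4 are from separate stretches of PSME3, the next 2 are all those of PSMD10, and the last 3 lie in members that were below 0.
PSME3, chr17:40993847-40993857 (+): cuccaGGUUUGUGUGUgcagg
PSME3, chr17:40994668-40994678 (+): auuggUGUGUAUGUGUaugug
PSME3, chr17:40994710-40994720 (+): acauuUGUGUAUGUGGaaaug
PSME3, chr17:40994895-40994905 (+): cuuagUGUCUGUUUCUgacuu
PSMD10, chrX:107327609-107327619 (-): cuaugUAUUUGUUUUUgaugg
PSMD10, chrX:107327829-107327839 (-): ccagaUGUUUCUAUGUggauu
PSMD5, chr9:123578799-123578809 (-): uuuuuUGUGUGUGUUUccaug
PSMD11, chr17:30807796-30807806 (+): uuuggAGAGUGUGUGUggcgg
PSMA7, chr20:60711891-60711901 (-): aaaugUCUUUGCUUGUaauuu

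Of the bins with the most IP reads, the first 2 of PSME3 overlapped a GRE, while the other of PSME3 and those of PSMD10 lay 46 to 82 nt from one. A peak is a bin with more than 30 IP reads at p under 0.05, and a common peak is such a bin in all 3 samples. The following common peaks are shown with each UGU in capitals, because UGU is the repeated core of both elements. They are the 3 peaks of PSME3 and the 3 of PSMD10 with the highest lowest-of-3 IP read counts, followed by the common peak of PSMA7 nearest its transcript end as a contrast. The annotation of PSMA7 ends at chr20:60711789, inside that bin. The UGU printed for PSMA7 lies past this end, in genomic sequence outside the annotated transcript.
PSME3, chr17:40994881-40994900 (+): ccagugacucuuagUGUcug
PSME3, chr17:40994901-40994920 (+): uuucugacuuauuuuuccug
PSME3, chr17:40994601-40994620 (+): ggcuuuccuuuugggaacua
PSMD10, chrX:107327701-107327720 (-): auuuuUGUgauaggagggau
PSMD10, chrX:107327761-107327780 (-): ucaagcucacucaggccuac
PSMD10, chrX:107327521-107327540 (-): UGUcauccUGUauugaaaag
PSMA7, chr20:60711781-60711800 (-): ccguauuuuuaaccUGUuuu

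Of the 50 members, 47 had listed bins in all 3 samples. The exceptions were PSMA8, a testis alpha subunit, and PSMB11, the beta subunit of the thymus proteasome, with no bin in any sample, and PSMB9 with none in UACC-62 replicate 1. Together the members held 0.366%, 0.286% and 0.337% of the listed IP reads and 0.689%, 0.652% and 0.702% of the listed input reads. Their share was thus smaller in IP than in input in each sample. Log2 IP over input was above 0 in all 3 samples for 2 of the 47 (31.2% of all 10039 genes with bins in all 3) and below 0 in all 3 for the other 45 (43.8% of all genes). The median over the members was -1.09 for SK-Mel-103 and -1.98 ± 0.20 for UACC-62 (SD, n = 2), beside -0.07, -0.42 and -0.21 over all genes.

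**Figure D1:**
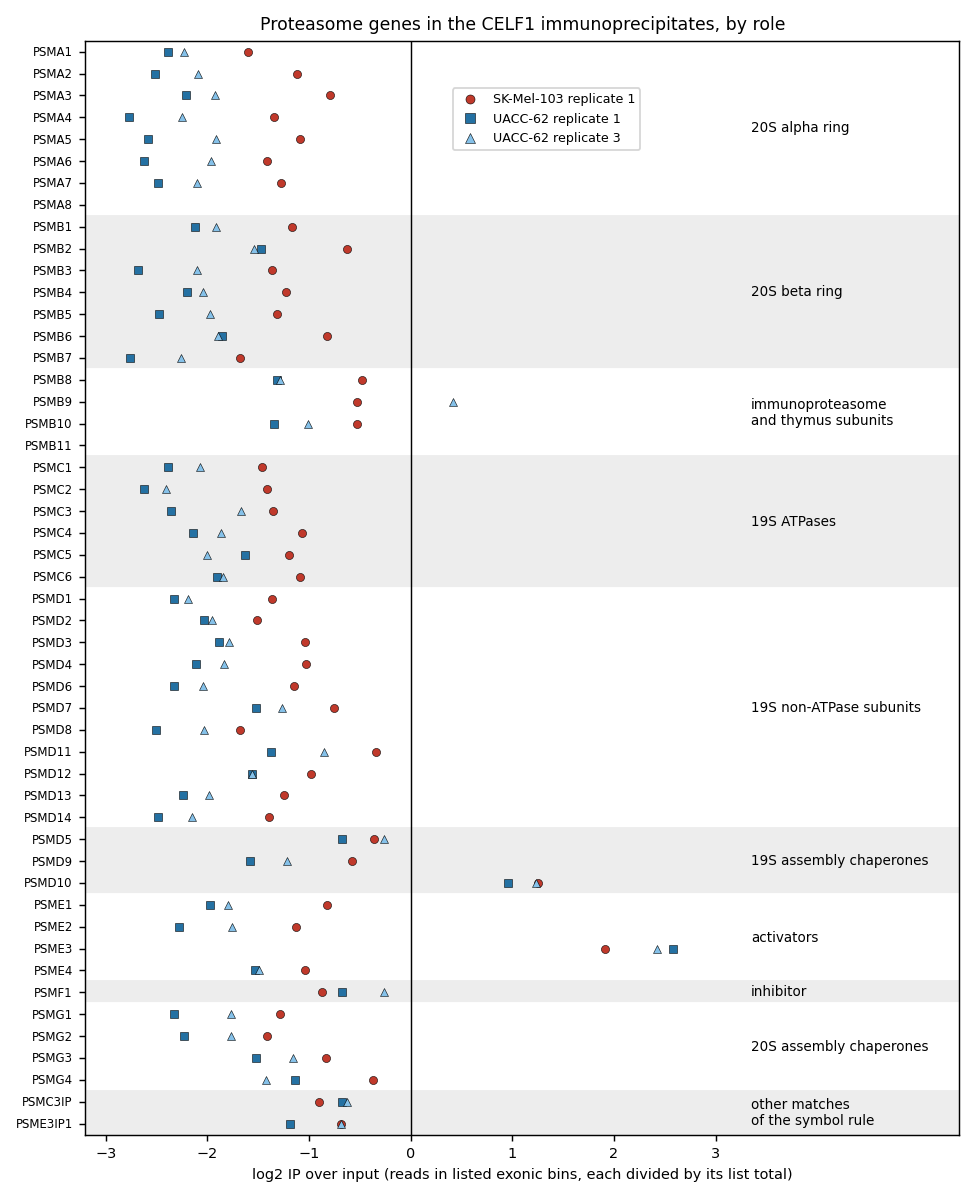
Log2 IP over input (x axis) of the proteasome genes, grouped by role, with 1 point for each sample and the vertical line at equal shares of IP and input. PSME3 and PSMD10 lie to the right of the line in all 3 samples, the other members listed in all 3 lie to its left, and PSMB9 lies on either side.

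The ratio went with the level of the transcripts. From the lowest to the highest decile of all genes by input level, the median log2 IP over input went from 1.21 to -1.13, from 1.16 to -1.89 and from 1.89 to -1.53. Most proteasome genes were high in input, with 25, 22 and 25 of them in the highest decile. Input reads enter both the level and the ratio, and the lists hold only passing bins, with at least 4 IP reads. The relation is thus in part one of construction. In the lowest decile of UACC-62 replicate 3, the median input level was 0. Among the 1613 genes in the top quintile of input level in all 3 samples, 13.8% were above 0 in all 3 and 77.0% below, and of the 32 members in that class 2 were above and 30 below. The median of these 32 members was -1.18 for SK-Mel-103 and -2.09 ± 0.19 (SD, n = 2) for UACC-62, beside -1.0 and -1.55 ± 0.22 for the 1613 genes. With each gene centred on the genes of its own decile, a setting added after the data were seen, the medians of the members were -0.15, -0.47 and -0.46, 31 of 47 members were below 0 in all 3 samples (32.8% of all genes), and PSMD5 joined PSME3 and PSMD10 above 0 (34.6% of all genes).

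**Figure D2:**
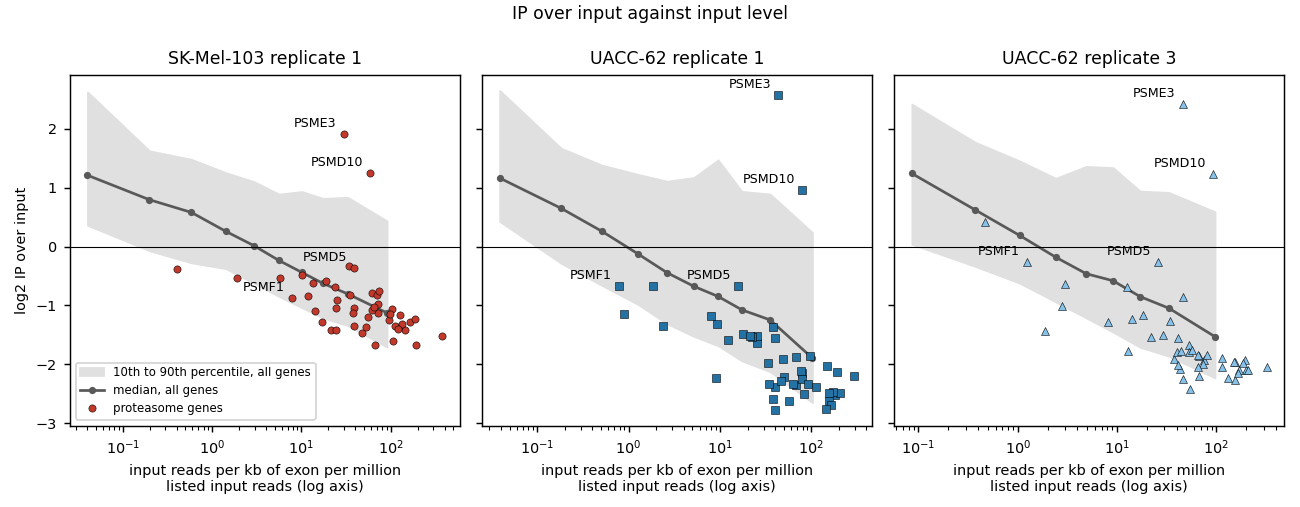
Log2 IP over input against input level (listed input reads per kb of exon, scaled to 1000000 reads, log axis) in each sample, with proteasome genes as points, the medians of all genes by decile of input level as a grey line and their 10th to 90th percentiles as a band (the lowest decile of UACC-62 replicate 3, at a median level of 0, is not drawn). PSME3 and PSMD10 sit above the band in each sample, and 31 of the 47 members listed in all samples lie below the median of their own decile in all 3, beside 32.8% of all genes.

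PSME3 (chr17:40976402-40995777, plus strand) had the highest ratio of the members. It had 5979, 14247 and 17231 IP reads and 1226, 2139 and 1984 input reads. Its log2 IP over input was 1.91, 2.58 and 2.42 (exact binomial 95% intervals 1.82 to 2.0, 2.51 to 2.64 and 2.35 to 2.49, which cover counting error only). PSME3 thus stood at the 94.6th, 97.4th and 94.2nd percentile of all genes, and both UACC-62 values lay above the SK-Mel-103 value. Relative to genes of its own decile of input level it was at 2.71, 3.82 and 3.47. It carried 56 of the 120 common peaks of all members, and 55 of them were above 0 in all 3 samples. The exception was a bin in the coding region (chr17:40986821-40986840) at -0.25, -0.02 and 0.76.

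Most common peaks of PSME3 lay in its 3′ UTR, and nearly all of these between nt 1015 and 2395 of the transcript of 3182 nt. Of its common peaks, 51 (91.1%, Wilson 95% interval 80.7 to 96.1%) were in the 3′ UTR, 5 in the coding region and 0 in the 5′ UTR. Over all genes, 86.2% of the common peaks were in 3′ UTRs, a share within that interval. Wilson intervals over peaks treat adjacent bins as separate draws and cover no more than the counting of bins. Beyond nt 2395 there was 1 common peak, at nt 3135, with 39, 52 and 53 IP reads. Log2 IP over input was 2.29, 3.05 and 2.80 in the 3′ UTR and 0.49, 0.67 and 1.38 in the coding region. The 3′ UTR was thus higher in each sample, by 1.80, 2.38 and 1.43, as it was in 56.8% of all 4534 genes compared. The pair of adjacent bins over the GRE at chr17:40994895-40994905 held 431, 914 and 893 IP reads and 32, 67 and 45 input reads. These were the bins with the highest lowest-of-3 IP counts of PSME3. The site with the closest match to the UG repeat, at chr17:40994668-40994678 with 1 mismatch, was covered by 1 listed bin with 9, 25 and 40 IP reads and 1, 3 and 1 input reads.

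Signal in PSME3 was not restricted to the surroundings of GREs. Its 10 GREs formed 4 separate stretches, and 16 of the 56 common peaks had a gap of at most 50 nt to a GRE. All bins of the 3′ UTR were then divided by a narrower measure, the distance from bin centre to GRE centre. Over the bins within 50 nt by that measure, log2 IP over input was 2.69, 3.49 and 3.10, and over the more distant bins 2.17, 2.90 and 2.70. The near bins were higher by 0.52, 0.58 and 0.40, and both classes were above 0 in each sample. Of the 56 common peaks, 25 held a UGU, beside 13 of the 24 of PSMD10 and 15 of the 40 of the other members. The last count includes the UGU past the annotated end of PSMA7.

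PSMD10 (chrX:107327437-107334779, minus strand) was the second member above 0. It had 2255, 2574 and 4657 IP reads and 730, 1186 and 1224 input reads. The log2 ratio was 1.25, 0.96 and 1.23, and the SK-Mel-103 value exceeded the UACC-62 mean by 0.16, less than the 0.27 between the UACC-62 replicates. Against genes of its own decile it was at 2.38, 2.85 and 2.76. All 24 of its common peaks lay in the 3′ UTR, beside 86.2% of those of all genes, and were above 0 in all 3 samples. The 3′ UTR exceeded the coding region by 0.99, 2.19 and 0.70, a direction shared in all 3 samples by 56.8% of all genes compared. In the coding region the ratio was 0.38, -1.0 and 0.64, where the UACC-62 replicates fell on opposite sides of 0. Both of its GREs had 2 mismatches and lay in bins above 0, and 11 of the 24 common peaks had a gap of at most 50 nt to a GRE. In the 3′ UTR of the transcript plotted for PSMD10, 10 bins lay within 50 nt of a GRE from centre to centre. They exceeded the more distant bins by 0.05, 0.37 and 0.15, and the ratios of both classes were between 1.29 and 1.66. Some common peaks counted as near by gap thus fell among the distant bins, and how far these differences depend on the measure was not tested.

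**Figure D3:**
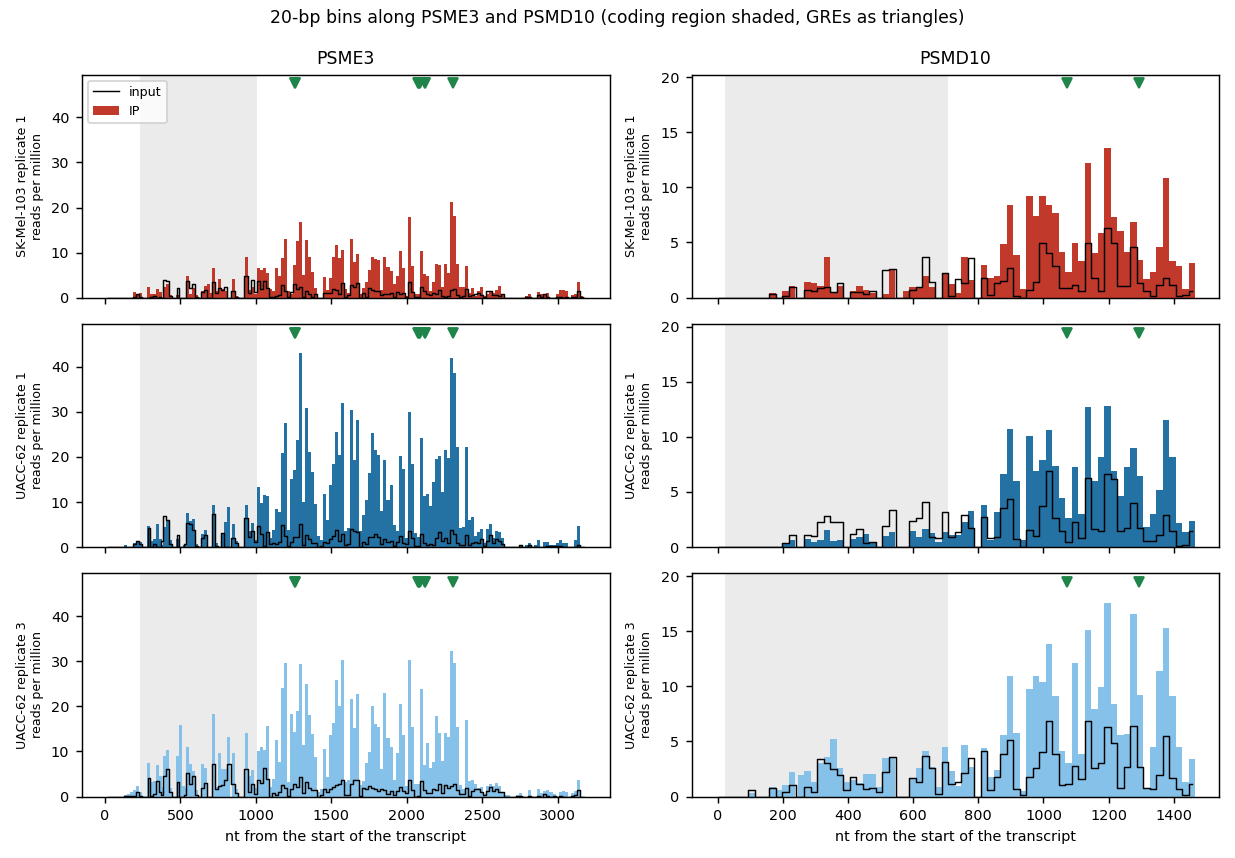
Reads in bins of 20 bp, scaled to 1000000 listed reads (y axis), along the PSME3 and PSMD10 transcripts (x axis, nt from the transcript start), with IP as bars and input as a black line in each of the 3 samples, the coding region shaded and GREs as triangles. IP exceeds input along most of both 3′ UTRs, where 51 common peaks of PSME3 and 24 of PSMD10 lie.

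PSME3 and PSMD10 together gave 20.5%, 51.9% and 45.0% of the members' IP reads, but 3.36%, 5.02% and 5.14% of their input reads. Common peaks were found in 20 of the 50 members, while 8.69% of all genes and 17.2% of the genes listed in all 3 samples had a common peak. All 20 were among the 32 members in the top quintile of input level, and in that class 65.0% of all genes had a common peak, close to the 20 of 32 (62.5%) of the members. Leaving out UACC-62 replicate 1 raised the count to 31 of 50, beside 11.1% of all genes. The other 18 members held 40 common peaks, of which 38 were below 0 in all 3 samples and 0 were above 0 in all 3. A common peak above 0 in all 3 samples was thus found in 2 of the 20 members with a common peak, and in 57.9% of all genes with a common peak. These 2 members were PSME3 and PSMD10. The 57.9% is over 1724 genes, of which 1049 were in the top quintile of input level, and the share within that class is not given here. Of the 40 peaks of the other members, the 2 not below 0 in all 3 samples were a peak of PSMB1 (0.71, -1.05 and -1.02) and a peak of PSMC1 (0.09, -1.30 and -1.70).

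PSMA7, an alpha subunit, had 9 common peaks, the highest count after PSME3 and PSMD10. It had 1204, 676 and 1133 IP reads and 2253, 3397 and 2994 input reads, with log2 ratios of -1.28, -2.48 and -2.10, so that peaks were called in a transcript with a larger share of input than of IP reads. PSMB4, a structural beta subunit, had 7 common peaks at ratios of -1.22, -2.20 and -2.04, from 805, 667 and 1035 IP reads against 1449, 2758 and 2628 input reads. PSMB1, another structural beta subunit, had 4 common peaks at -1.17, -2.12 and -1.92, and PSMD2, the large scaffold subunit of the 19S base, had 3 common peaks at -1.51, -2.03 and -1.96. Of the 40 common peaks outside PSME3 and PSMD10, 21 (52.5%, Wilson 95% interval 37.5 to 67.1%) were in 3′ UTRs, beside 80.0% (72.0 to 86.2%) of all 120 member peaks and 86.2% of the peaks of all genes.

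**Figure D4:**
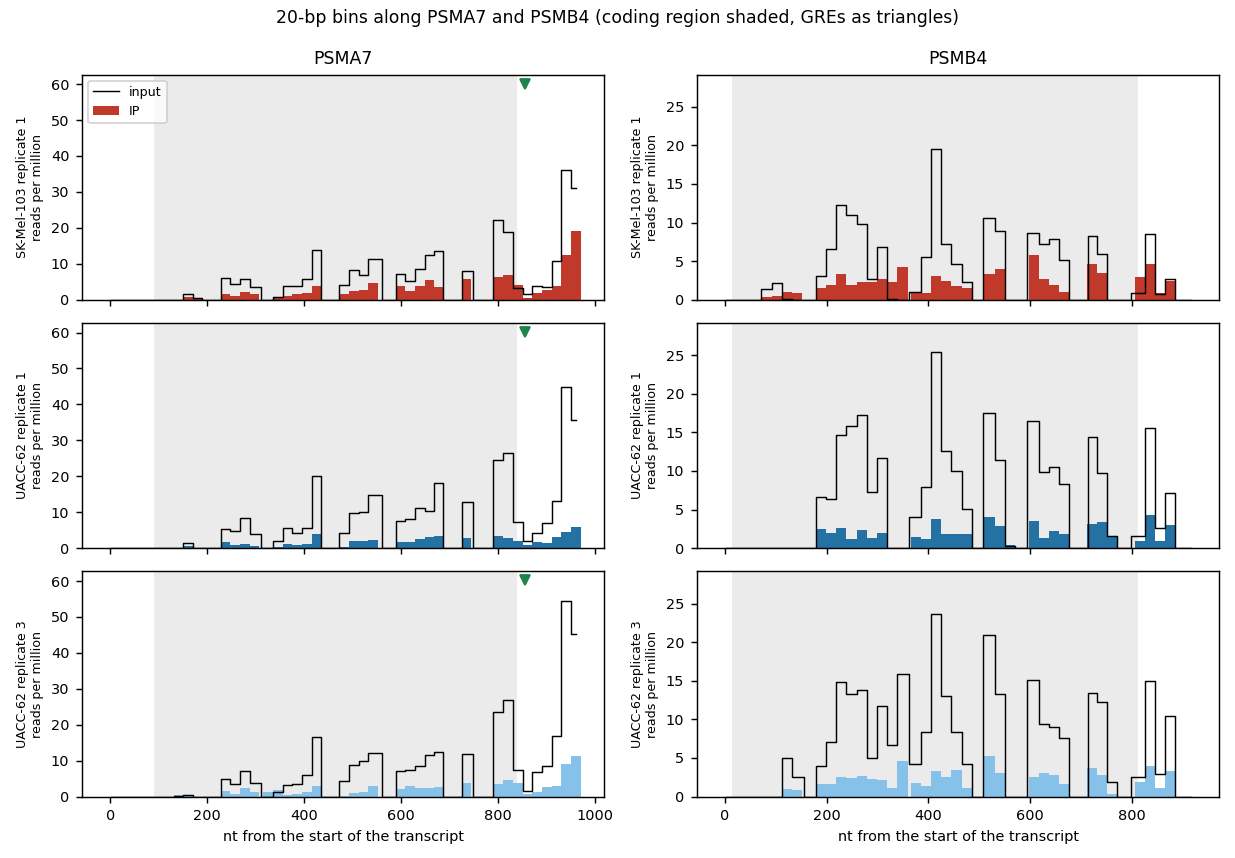
Reads in bins of 20 bp, scaled to 1000000 listed reads, along the PSMA7 and PSMB4 transcripts, drawn as for PSME3 and PSMD10, with IP as bars, input as a black line, the coding region shaded and the GRE of PSMA7 as a triangle. The input line runs above the IP bars over most of both transcripts in each sample.

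All 7 listed genes of the 20S alpha ring, which forms the gate of the core, were below 0 in all 3 samples. Their ratios ranged from -1.60 to -0.79, from -2.77 to -2.21 and from -2.25 to -1.92. PSMA1 and PSMA6 were among the lowest members. PSMA1 had -1.60, -2.39 and -2.24, and PSMA6 had -1.42, -2.63 and -1.97. In 3 alpha genes bins lay in exons of another gene on the same strand (42 bins of PSMA1, 46 of PSMA6 and all 71 of PSMA2), so that their reads cannot be assigned with certainty. Without such bins the SK-Mel-103 value of PSMA6 was -0.56, with no UACC-62 mean left for it, and PSMA2 had no value. The low place of PSMA6 among the members thus rests on shared bins.

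The 7 genes of the constitutive beta ring were also below 0 in all 3 samples, with medians of -1.22, -2.20 and -1.98. PSMB7, which carries the trypsin-like site, was the lowest of them at -1.68, -2.76 and -2.26, from 723, 268 and 520 IP reads against 1783, 1631 and 1537 input reads. PSMB5, with the chymotrypsin-like site, had -1.32, -2.48 and -1.98, and PSMB6, with the caspase-like site, had -0.82, -1.85 and -1.90. Their 3′ UTRs are short, with a median of 133 nt beside 1289 nt over all genes, and 1 of the 7, PSMB2, had a GRE.

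The interferon-inducible beta subunits were low in input. PSMB8 had 131, 144 and 110 input reads and 122, 64 and 73 IP reads, with log2 ratios of -0.48, -1.32 and -1.28. PSMB10 had 49, 24 and 25 input and 44, 10 and 20 IP reads, with ratios of -0.53, -1.34 and -1.01, and 29 of its 51 exonic bins lay in exons of another gene on the same strand. PSMB9 had 19 input and 17 IP reads for SK-Mel-103 (-0.53), and for UACC-62 no listed bin with replicate 1 and 5 input and 12 IP reads with replicate 3 (0.42). At such counts PSMB9 allows no statement on either side of 0. No common peak was found in any of these 3 genes.

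In the 19S particle, the 6 ATPases had medians of -1.27, -2.25 and -1.93 and the 11 non-ATPase subunits had medians of -1.15, -2.11 and -1.96. PSMC1 was the lowest ATPase by its highest value, with 837, 378 and 646 IP reads against 1777, 1773 and 1678 input reads and ratios of -1.46, -2.38 and -2.07. PSMD8, a lid subunit, was the lowest of all members by that measure, with 700, 506 and 712 IP reads against 1730, 2574 and 1804 input reads and ratios of -1.68, -2.50 and -2.04. PSMD11, a lid subunit, reached -0.34, -1.37 and -0.85. Its ratio was 0.11, -0.92 and -0.50 in the 3′ UTR and -1.05, -2.08 and -1.28 in the coding region, a difference of the same direction as in PSME3 but from a lower base.

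PSMD10 belongs to the assembly chaperones of the 19S base, of which the others were below 0. PSMD5 ranked next after PSMD10 among all members by its lowest value. It had 1238, 417 and 1163 IP reads and 1226, 598 and 862 input reads, and ratios of -0.36, -0.68 and -0.27. It had 5 GREs, 3 of them with 1 mismatch, and no common peak. The bins over the GRE at chr9:123578799-123578809 held 29, 16 and 38 IP reads and 34, 21 and 31 input reads. PSMD9 had -0.58, -1.58 and -1.22, and its 5 GREs had no listed bin in any sample. Of its 138 exonic bins, 40 were shared with another gene on the same strand.

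Among the activators, PSME3 differed in sign from its relatives. PSME1 and PSME2, the interferon-inducible subunits of the cytoplasmic PA28 cap, had ratios of -0.82, -1.98 and -1.79 and of -1.13, -2.28 and -1.76. PSME4, which encodes PA200, had -1.04, -1.53 and -1.50 and no common peak. The 3′ UTR of PSME3 measures 2182 nt in the annotation and those of PSME1, PSME2 and PSME4 measure 323, 44 and 1509 nt, with 10, 0, 0 and 3 GREs. PSMF1, the inhibitor PI31, had 410, 48 and 132 IP reads against 578, 69 and 97 input reads and ratios of -0.87, -0.67 and -0.26. The 20S assembly chaperones PSMG1 to PSMG4 ranged from -1.42 to -0.37 for SK-Mel-103 and from -2.33 to -1.14 for UACC-62 replicate 1. PSMC3IP had 227, 20 and 43 IP reads against 328, 29 and 41 input reads, with ratios of -0.90, -0.67 and -0.63, and PSME3IP1 had ratios of -0.69, -1.18 and -0.68.

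Members with and without a GRE were compared by their ratio. A GRE was found in 22 of the 50 members, beside 56.4% of all genes with an annotated 3′ UTR. The median 3′ UTR of the members was 622 nt, beside 1289 nt over all genes, and there were 1.2 GREs per kb of member 3′ UTR and 1.48 per kb over all genes. The 21 listed members with a GRE had medians of -0.98, -1.56 and -1.54 and the 26 without one had medians of -1.19, -2.26 and -1.94, while their median input levels were 34.0 and 71.3 reads per kb of exon, scaled to 1000000 listed reads, for SK-Mel-103. Both members above 0 had a GRE, as did 19 below 0. Of the 74 GREs, 25 had listed bins in all 3 samples, and 14 of these were above 0 in all 3, namely the 10 of PSME3, the 2 of PSMD10 and 2 of PSMD5 with 13 or fewer IP reads in any sample. PSMG4 had 18 GREs, the highest count, and no listed bin on any of them. Over the bins of PSMD11 at its UG-rich GRE, there were 42, 36 and 49 IP reads and 35, 78 and 108 input reads. Over those of PSMA7 there were 49, 33 and 68 IP reads and 41, 94 and 80 input reads. A match to these letters is a description and not a binding site.

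The 3′ UTR could be compared with the coding region in 43 members, with at least 50 reads in each sample. It was higher in all 3 samples in 15 of the 43 (56.8% of all 4534 genes compared) and lower in all 3 in 12 (13.0% of all genes compared). The 12 included PSMD4, a ubiquitin receptor (-1.13, -0.89 and -0.78), and PSME2 (-0.66, -0.62 and -1.05). The 15 included PSMD12 (0.59, 1.02 and 0.89) and PSMB1 (0.67, 0.92 and 0.58), besides PSME3, PSMD10 and PSMD11.

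The ratio of the members was higher in SK-Mel-103 than in UACC-62. Of 47 members, 42 were above both UACC-62 replicates in SK-Mel-103 (53.9% of all genes), and 2 lay between them. PSME3, PSMF1 and PSMC3IP were below both (24.1% of all genes). For PSMF1 the difference from the UACC-62 mean was -0.404, smaller than the 0.415 between the UACC-62 replicates. The SK-Mel-103 value of PSMC3IP lay within the binomial 95% intervals of both UACC-62 replicates (-1.59 to 0.18 and -1.28 to 0.02). The median difference was 0.82 for the members and 0.26 for all genes, and the difference exceeded that between the UACC-62 replicates in 42 members (60.2% of all genes). Centred by decile of input level, the median difference was 0.33. The largest differences among the members were in the alpha ring. PSMA3 had 371, 118 and 278 IP reads and 496, 492 and 652 input reads, with ratios of -0.79, -2.21 and -1.92, a difference of 1.27. PSMA2 had ratios of -1.12, -2.52 and -2.09, PSMA4 had -1.34, -2.77 and -2.25, and PSMA5 had -1.09, -2.59 and -1.92, with differences of 1.18, 1.16 and 1.16. PSME3 was lower in SK-Mel-103 by more than the UACC-62 replicates differed, with a difference of -0.59. SK-Mel-103 had 1 sample, so that the difference between lines cannot be told apart from that between samples.

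**Figure D5:**
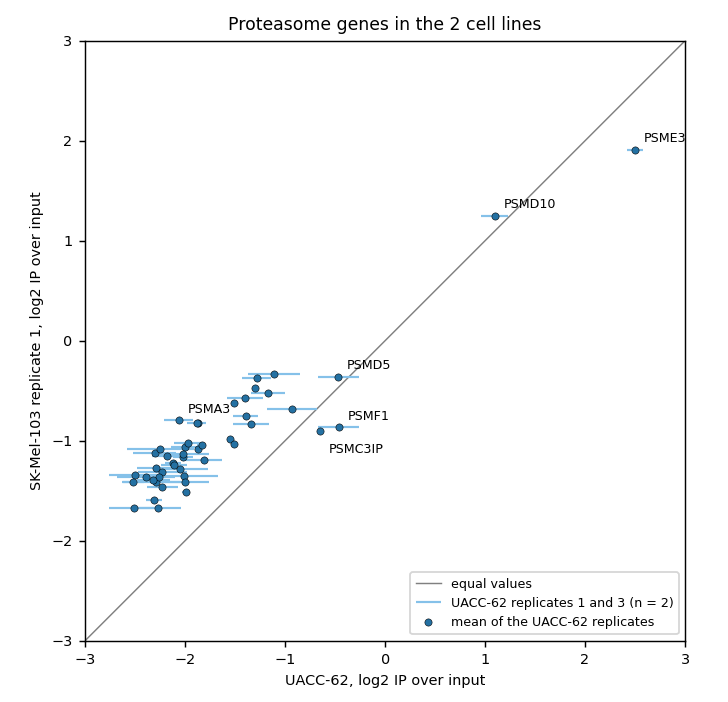
Log2 IP over input in SK-Mel-103 replicate 1 (y axis) against the mean of the UACC-62 replicates (x axis, blue lines joining replicates 1 and 3) for the 47 members listed in all 3 samples. Most members lie above the line of equal values, with a median difference of 0.82, and PSME3, PSMF1 and PSMC3IP lie below it.

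Genes that work with the proteasome but fall outside the symbol rule were also mostly below 0. Of 21 such genes, 18 were below 0 in all 3 samples (43.8% of all genes), 2 (DDI2 and UBQLN2) were mixed and 1 was above (31.2% of all genes). The last was ZFAND5, a ubiquitin-binding activator of the proteasome, with 5218, 4752 and 5656 IP reads and 2968, 3224 and 2707 input reads. Its ratios were 0.44, 0.40 and 0.36, and 17 of its 46 common peaks were above 0 in all 3 samples. UBE3A, below 0 as a gene, had 3 of its 6 common peaks above 0 in all 3 samples, unlike any member below 0. The COP9 signalosome, a complex built like the 19S lid, had 2 of 10 genes above 0, namely COPS7A (1.06, 1.43 and 1.79, with 12 common peaks) and COPS7B (0.65, 0.69 and 0.58). Of the 13 genes of eIF3, the translation initiation factor of related build, 0 were above 0 in all 3 samples and 13 below. The shares of all genes were 31.2% above and 43.8% below. EIF3E, below 0 as a gene, had 12 of its 18 common peaks above 0 in all 3 samples.

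The labelled lineage was checked against marker genes by their input reads in listed bins. SOX10 had 864, 2115 and 1080 input reads. MITF had 18, 6034 and 5000, MLANA had 18, 826 and 926, and TYR, DCT and S100B had listed bins in UACC-62 and none in SK-Mel-103. PMEL and TYRP1 had no listed bin in any sample. Of the markers of other cell types, KRT5, KRT14, KRT1, CD3E and CDH5 had none, PTPRC, LYZ and VWF had at most 14 input reads, and KRT10 had 120 to 251. In these bulk lysates fewer cells with a transcript and less of it per cell cannot be told apart.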

How the data were processed

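The authors sequenced CELF1 RIP-Seq libraries of 2 melanoma lines (3 IP samples, each with an input), aligned the reads to GRCh37 with TopHat2 (2.0.4 in the submitters' processing notes, another release in the methods) and called bins of 20 bp with Piranha. The deposited counts are whole IP reads in passing bins. Whether the deposited p-value was corrected is not given in the sources used here. From the deposited ratio of the covariate, whole input reads were recovered (0.01 marks none). The lists held 10958459, 11333805 and 14436573 IP reads and 8453517, 10161917 and 8900292 input reads. The IgG control of the methods was not analysed here, and 1 marker gene is not reported here.

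Transcript strand was the reverse of the listed one. Exonic bins of GENCODE 44 were placed by their centre in 3′ UTR, coding region or 5′ UTR, in that order. Log2 IP over input used list totals and a pseudocount of 1 read. Ranks and region comparisons needed 50 reads in each sample.

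Members and lists were chosen with earlier results of these data known, and PSME3IP1 was given its role after the annotation was read. Genes named by rule were the 6 with the highest lowest value, the 6 with the lowest highest value, the 6 with the most common peaks, the 4 with the largest difference between lines, PSMB8, PSMB9, PSMB10 and PSMC3IP. Others were named after their values were seen. Alternatives covered read filter, p, strand, shared bins, normalization, pseudocount, region order, mismatches, pairing and each sample. Scripts (Python 3.11.15 with pandas 2.3.3, numpy 2.4.6 and scipy 1.17.1, figures with matplotlib 3.10.9) were tested on simulated data.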

Additional observations from a re-analysis of the deposited data

How the results depend on the processing

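PSME3 and PSMD10 kept log2 IP over input above 0 in all samples under each alternative run for the ratio. The strand setting was run for common peaks alone. Members with a common peak numbered 47 without a read filter (7934 of all 19833 genes), 2 with more than 100 IP reads (2.67% of all genes), 0 when the strand was not reversed (0.484%), and 20 to 31 when 1 sample was left out (9.13% to 11.2%), the highest without UACC-62 replicate 1 (11.1%). Members below 0 in all samples numbered 19 when only bins with more than 30 IP reads were used, a setting that left 22 members with values in all samples (38.8% of the 1869 genes left). Without division by totals, the median of the members was -0.71 for SK-Mel-103 and -1.56 for UACC-62, and PSMD5 turned to 0.014 for SK-Mel-103. Centred by decile of input level, a setting added after the data were seen, the medians were -0.15 and -0.46, the median difference between lines was 0.33, and the values of PSMA2 (0.0040) and PSMA3 (0.33) in SK-Mel-103 and of PSMD5 (0.44 in SK-Mel-103, 0.59 in UACC-62) turned positive. With 1 UACC-62 replicate left out, the UACC-62 median was -2.12 to -1.85 and the median difference between lines 0.66 to 0.96. The share of common member peaks in 3′ UTRs was 39.5% without a read filter. It was 100% above 100 reads, where only 2 members, PSME3 and PSMD10, had a common peak. The shares of all genes at these filters are not given here. Members with a GRE numbered 0 at 0 mismatches and 6 at 1 mismatch. The shares of all genes at these settings are not given here, so that these counts cannot be called low or high. With no replicate block, so that each UACC-62 IP was set against the mean of both inputs, 2 members were above and 43 below 0 in all samples (25.9% and 41.8% of all genes). The lists hold passing bins with at least 4 IP reads, so that a member without listed bins may still have been sequenced.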

Other observations

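In input reads per kb of exon, scaled to 1000000 listed reads, PSMD2 was at 378 in SK-Mel-103 replicate 1 and at 147 and 151 in UACC-62 replicates 1 and 3. PSMC3IP was at 25.1 beside 1.84 and 2.98, and PSMF1 at 7.86 beside 0.78 and 1.25. PSMA2 (71.5 beside 179 and 201) and PSMC2 (21.5 beside 57.3 and 54.9) went the other way. These levels count input reads in listed bins alone, so that they also depend on how many bins passed the peak caller. Listed bins numbered 26, 4 and 8 for PSMC3IP and 56, 9 and 22 for PSMF1. They numbered 99, 90 and 105 for PSMD2, 27, 28 and 27 for PSMA2, and 43, 44 and 52 for PSMC2. Of 47 members, 7 were more than 2-fold higher and 5 more than 2-fold lower in SK-Mel-103 than the UACC-62 mean, beside 27.3% and 22.8% of all 10039 genes.

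Reads listed over 44 annotated pseudogenes of the members amounted to 18, 0 and 6 IP reads in the 3 samples, and those on the strand antisense to member exons to 96, 57 and 89 (at most 0.24% of the members' IP reads).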
